A study of Mus musculus with 10 samples.

Results

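The genes described here are 10 components of Wnt signalling, chosen by name with earlier results of these data known. They are the ligands Wnt4 and Wnt5a, the receptors Fzd1, Fzd2 and Fzd7, the co-receptor Lrp6, the intracellular inhibitor Axin2, and the secreted antagonists Sfrp1, Dkk2 and Dkk3. Each was read from the row that carries its symbol, or from the row with the highest mean where several did. Of the 10, 7 had a row of their own among the 14849 rows that name a gene. Wnt4, Dkk2 and Dkk3 had no row in the table used here and are not analysed here. All 7 reached 1 RPKM in at least 1 library, where RPKM is a read count per transcript length and per total of mapped reads. Wnt5a, Fzd1, Fzd2, Fzd7 and Lrp6 reached it in at least 2 libraries and were tested among 12842 rows, while Axin2 and Sfrp1 reached it in FOXP2 clone 3 alone.

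NIH3T3, the mouse embryonic fibroblast line used, was profiled by RNA sequencing. The clones overexpress the forkhead transcription factor FOXP2, or FOXP2-CPED1, termed a FOXP2 arrangement in the series' title. The comparisons describe how their transcripts differ from those of control cells and between the constructs. There were 4 independent clones stably overexpressing FOXP2 and 4 independent clones stably overexpressing FOXP2-CPED1. The control was 1 culture of parental cells and 1 culture with the vector. These cultures differ in genotype and were pooled, and there was no series of vector clones. Comparisons with the control, including that of Fzd7, therefore do not separate the construct from the derivation of a clone. Which of them a difference goes with was not tested. Each clone or culture gave 1 library, so an SD for a construct describes how its clones differ, and p-values reflect variation among these 10 cultures. The promoter that drives the constructs is not given in the sources used here.

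Wnt proteins are secreted lipid-modified ligands that bind the extracellular domain of Frizzled receptors. With the co-receptor Lrp5 or Lrp6, some of them stabilise beta-catenin, which then acts with TCF/LEF factors on target genes such as Axin2. Others, of which Wnt5a is the best known in fibroblasts, act mostly without beta-catenin, on cell polarity and movement. Sfrp proteins bind Wnt ligands outside the cell, and Dickkopf proteins such as Dkk2 bind the co-receptors.

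Summed RPKM ranged from 794682 to 944602 per library, and relative depth, taken from the spacing of low values, lay between 0.913 and 1.32 times the parental one. The absolute depth is unknown. In FOXP2 clones 2 and 4 and in FOXP2-CPED1 clone 3, the mitochondrial genome's rows were listed at 0. Of 8 fibroblast markers, 7 had a row and all of these reached 1 RPKM. Their summed level was 5917 to 8149 RPKM in FOXP2 clones, 6349 to 8898 RPKM in FOXP2-CPED1 clones and 8957 to 9067 RPKM in control cells. Markers of blood and neural cells had no row, and the endothelial marker with a row stayed under 1 RPKM. Of the epithelial and the muscle markers 1 each reached 1 RPKM, with sums of at most 2.37 and 3.57 RPKM in any library. The mouse Foxp2 row stood at 0.145 to 1.02 RPKM in FOXP2 clones, 0.0674 to 0.330 RPKM in FOXP2-CPED1 clones and 0.0785 to 0.0798 RPKM in control cells. The labels do not say which species' sequence was introduced, so this row is no check of them.

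Across the members, the receptor Fzd7 was lower in all 8 clones than in both controls, at 56.1% of the control mean. It was the member called in the comparison of all clones with the control. Fzd1, a related Frizzled receptor, averaged 2.21 times the control level but varied widely between clones and did not pass the test. The ligand Wnt5a varied with Fzd1 across libraries, and genes that are not members followed Fzd1 more closely. Fzd2 and Lrp6 had means between 79.8 and 94.2% of the control in each construct, and Axin2 and Sfrp1 were under 1 RPKM in all libraries but FOXP2 clone 3. No member was called between FOXP2-CPED1 and FOXP2 clones.

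**Figure D1:**
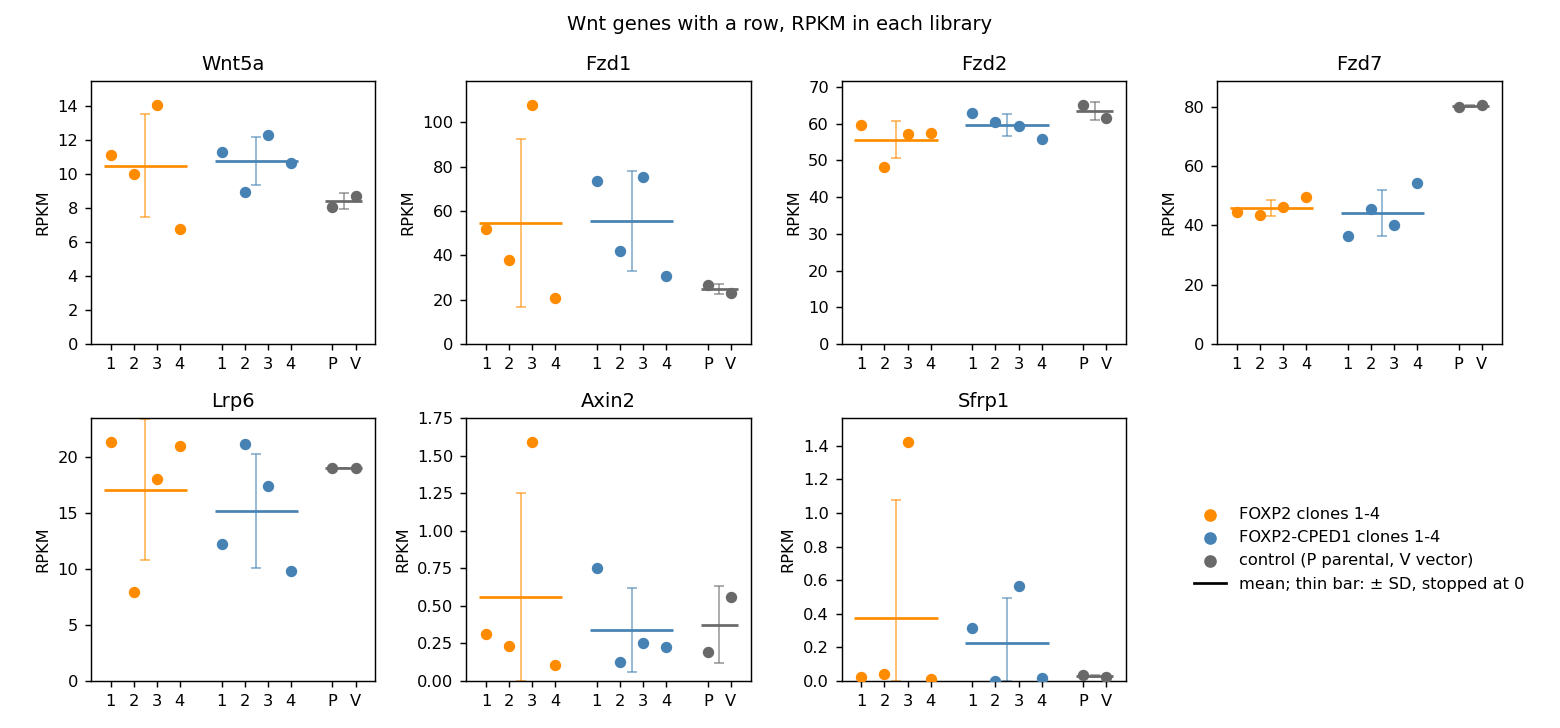
Level in RPKM (vertical axes, from 0) of the 7 members with a row in each library (horizontal axes: clones 1 to 4 of each construct, P parental and V vector cells). Points are libraries, horizontal lines are means and thin bars are SDs, stopped at 0. Fzd7 lies at 36.5 to 54.3 RPKM in the 8 clones and at 80.0 and 80.6 RPKM in the controls, while Fzd1 spreads over 20.8 to 107.7 RPKM among the clones.

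Among the ligands, Wnt5a was the most abundant with a row, at 10.5 ± 3.01 RPKM in FOXP2 clones (SD, n = 4), 10.8 ± 1.41 RPKM in FOXP2-CPED1 clones (n = 4) and 8.40 ± 0.462 RPKM in control cells (n = 2). In FOXP2 clones 1 to 4 it had 11.1, 10.01, 14.05 and 6.75 RPKM, in FOXP2-CPED1 clones 1 to 4 it had 11.3, 8.91, 12.3 and 10.7 RPKM, and in parental and vector cells 8.07 and 8.72 RPKM. All clones but FOXP2 clone 4 were above both controls, and that clone was below them. The log2 fold change on the log2(RPKM + 1) scale was 0.25 ± 0.24 (SE) for FOXP2 and 0.32 ± 0.24 for FOXP2-CPED1, with adjusted p = 0.835 and 0.851 by limma. For FOXP2 it was 0.11 without clone 3, 0.42 without clone 4 and 0.52 without the 3 libraries that list mitochondrial rows at 0. The 4 FOXP2-CPED1 libraries did not overlap with the control, and the exact permutation test gave p = 0.133 there, where the smallest p that 4 against 2 libraries allow is 0.0667. Wnt10b and Wnt9a, both ligands, were the other tested genes of this class. Wnt10b averaged 2.49 ± 0.913 RPKM in the 8 clones and 2.65 ± 0.408 RPKM in control cells, and Wnt9a 2.17 ± 0.850 and 1.98 ± 0.174 RPKM in the same groups.

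Fzd7, a Frizzled receptor active in mesoderm and in stem cells, was the most abundant Frizzled transcript in control cells. It had 44.4, 43.5, 46.3 and 49.6 RPKM in FOXP2 clones 1 to 4, 36.5, 45.5, 40.1 and 54.3 RPKM in FOXP2-CPED1 clones 1 to 4, and 80.0 and 80.6 RPKM in parental and vector cells. The highest clone, FOXP2-CPED1 clone 4, was still well below the lower control, so the clones and the controls did not overlap for either construct. In bulk samples, fewer cells that express a gene and less RNA per cell cannot be told apart.

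The means of Fzd7 were 46.0 ± 2.68 RPKM in FOXP2 clones (SD, n = 4), 44.1 ± 7.75 RPKM in FOXP2-CPED1 clones (n = 4) and 80.3 ± 0.373 RPKM in control cells (n = 2). Its log2 fold change was -0.79 ± 0.16 (SE, adjusted p = 0.0900, limma) for FOXP2 and -0.87 ± 0.16 (adjusted p = 0.0678) for FOXP2-CPED1, and neither passed the threshold of 0.05. Over all 8 clones it was -0.83 ± 0.15 with a 95% interval of -1.15 to -0.50, which passed at adjusted p = 0.0418. The exact permutation test gave p = 0.0222 over all clones and 0.0667 for each construct, in each case the smallest p that the design allows. These exact p-values are two-sided and unadjusted, and 7 members were tested in each of 4 comparisons. Both constructs were set against the same 2 control libraries.

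The call of Fzd7 was close to the threshold. Its fold change stayed between -0.89 and -0.79 over 19 alternative settings, but the adjusted p was under 0.05 in 6 of them and between 0.0519 and 0.553 in the other 13. Left out singly, the parental library gave adjusted p = 0.512 and the vector library 0.553. In those fits the remaining control library is assumed to vary like the clones, as both controls are in the main fit. Without FOXP2 clone 1, 2, 3 or 4 it was 0.0963, 0.0562, 0.0549 or 0.0562, and without FOXP2-CPED1 clone 1, 2 or 3 it was 0.0689, 0.0785 or 0.0963. Without FOXP2-CPED1 clone 4, the clone with the highest Fzd7, it was 0.0172, and the call then also passed for FOXP2 (adjusted p = 0.0419) and for FOXP2-CPED1 (0.0317). It was 0.163 when FOXP2 clones 2 and 4 and FOXP2-CPED1 clone 3, with mitochondrial rows at 0, were all left out.

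The sequences around the start sites of Fzd7 and Fzd1 are shown because these were the Frizzled genes with the largest differences, one lower and one higher in the clones. Each window of 300 bases lies mostly before the annotated start. The windows come from RefSeq on build GRCm38.p6, which is not the mm9 build of the expression table. They were matched by symbol. Capitals mark the match to a searched motif.
Fzd7, chr1:59481897-59482196, plus strand: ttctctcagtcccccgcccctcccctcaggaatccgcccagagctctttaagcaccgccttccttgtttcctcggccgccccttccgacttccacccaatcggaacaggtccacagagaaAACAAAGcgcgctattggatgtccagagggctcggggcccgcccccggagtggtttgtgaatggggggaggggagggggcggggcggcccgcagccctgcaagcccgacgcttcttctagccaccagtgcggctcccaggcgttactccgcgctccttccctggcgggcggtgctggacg
Fzd1, chr5:4758167-4758466, minus strand: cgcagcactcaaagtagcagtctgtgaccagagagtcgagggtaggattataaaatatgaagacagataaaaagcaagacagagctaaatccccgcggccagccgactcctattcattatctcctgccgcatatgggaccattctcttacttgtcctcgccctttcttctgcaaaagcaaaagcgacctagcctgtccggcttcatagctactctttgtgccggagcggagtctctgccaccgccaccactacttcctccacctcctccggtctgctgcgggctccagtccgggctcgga

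The search covered both strands for the TCF/LEF core written as CTTTGAA or CTTTGAT or CTTTGTA or CTTTGTT, and for forkhead motifs written as TATTTAT or TATTTGT or TGTTTAC. Fzd7 held 1 TCF/LEF match, CTTTGTT on the opposite strand, printed as AACAAAG with its first base 130 bases before the start. It held no forkhead match, and Fzd1 held a match of neither kind. Over 32851 promoter windows of this length, 16.9% had a TCF/LEF match and 11.8% a forkhead match. GC content was 66.7% for Fzd7 and 54.0% for Fzd1, against a median of 52.7%. Of the 10 members, 5 matched the promoter table, and the windows of Dkk2, Wnt4 and Axin2 held no match to these motifs.

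Fzd1, a receptor used in both beta-catenin and other Wnt signalling, had 51.8, 37.9, 107.7 and 20.8 RPKM in FOXP2 clones 1 to 4, 73.3, 42.2, 75.5 and 30.8 RPKM in FOXP2-CPED1 clones 1 to 4, and 26.5 and 23.2 RPKM in parental and vector cells. It was above both controls in 7 of 8 clones and below both in FOXP2 clone 4. The highest clone had 5.18 times the level of the lowest. Means were 54.6 ± 37.7 RPKM in FOXP2 clones (SD, n = 4), 55.4 ± 22.4 RPKM in FOXP2-CPED1 clones (n = 4) and 24.8 ± 2.39 RPKM in control cells (n = 2).

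The log2 fold change of Fzd1 was 0.86 ± 0.55 for FOXP2 (SE, limma adjusted p = 0.743), 1.03 ± 0.55 for FOXP2-CPED1 (0.747) and 0.95 ± 0.51 over all clones (0.630). The 95% interval over all clones ran from -0.18 to 2.08. The exact permutation test gave p = 0.333, 0.133 and 0.156 in these 3 comparisons. With library quality weights, which give less weight to libraries that lie far from their group, Fzd1 passed in all 3, at adjusted p = 0.0396, 0.0391 and 0.0213, but those weights called 16.3%, 7.23% and 14.3% of all rows there. Its FOXP2 value depended on the libraries used: it was 0.46 without FOXP2 clone 3 and 1.55 without the 3 libraries that list mitochondrial rows at 0. A further row joins Fzd1 with the overlapping gene model Gm15750 and cannot be assigned to one of them. It had 15.2, 6.17, 35.8 and 7.84 RPKM in FOXP2 clones, 22.3, 19.3, 38.7 and 12.1 RPKM in FOXP2-CPED1 clones, and 3.63 and 8.55 RPKM in parental and vector cells, so FOXP2 clone 3 and FOXP2-CPED1 clone 3 were highest there too.

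Fzd2, a Frizzled receptor that binds Wnt5a, was the steadiest member. It had 59.6, 48.3, 57.3 and 57.6 RPKM in FOXP2 clones, 63.0, 60.4, 59.4 and 55.9 RPKM in FOXP2-CPED1 clones, and 65.1 and 61.7 RPKM in parental and vector cells. The FOXP2 clones lay below both controls and the FOXP2-CPED1 clones overlapped with them. The log2 fold change was -0.19 ± 0.13 for FOXP2 (SE, limma adjusted p = 0.754), with a 95% interval of -0.47 to 0.10, and -0.09 ± 0.13 for FOXP2-CPED1 (adjusted p = 0.928), with an interval of -0.37 to 0.20. The first value was -0.12 without FOXP2 clone 2, and the second was -0.05 without the parental library and -0.06 without FOXP2-CPED1 clone 4. A second Fzd2 row held 0.430 to 1.63 RPKM over the 10 libraries and was not used.

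**Figure D2:**
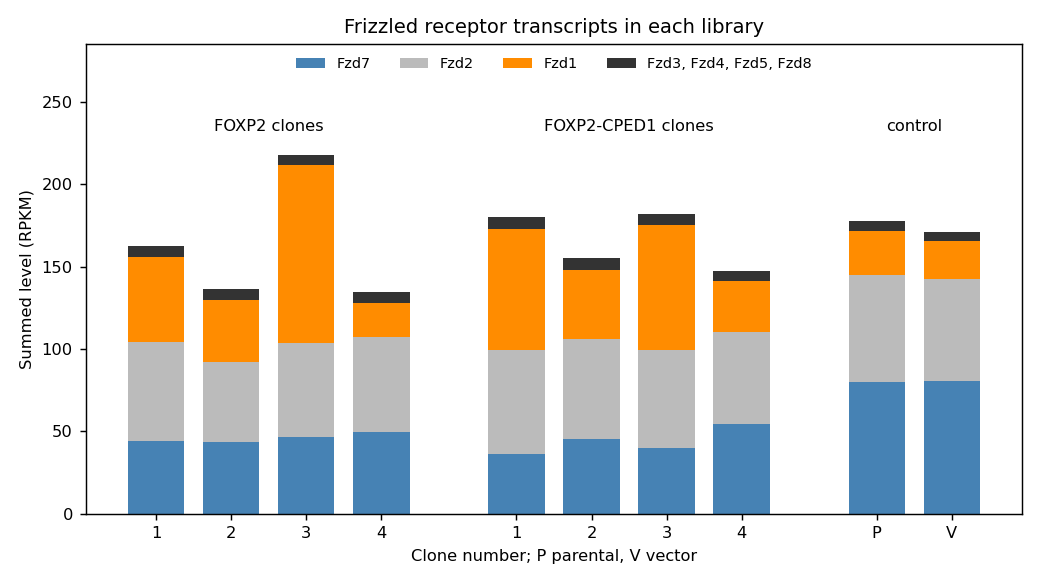
Level of Frizzled transcripts in each library, as stacked bars of RPKM from 0 (vertical axis), by clone number and for parental (P) and vector (V) cells (horizontal axis). Colours mark Fzd7, Fzd2, Fzd1 and the sum of Fzd3, Fzd4, Fzd5 and Fzd8. Fzd7 makes up 20.3 to 37.0% of a bar in the clones and 45.1 and 47.1% in the controls.

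Set side by side, the 3 abundant Frizzled genes stood in another order in the clone means than in the controls. In control cells the order was Fzd7, Fzd2 and Fzd1, at 80.3, 63.4 and 24.8 RPKM, each apart from its neighbour in both libraries. In the 8 clones the means were 57.7 ± 4.36 RPKM for Fzd2, 55.0 ± 28.7 RPKM for Fzd1 and 45.0 ± 5.46 RPKM for Fzd7 (SD, n = 8), and the spread of Fzd1 covered both others. Only FOXP2 clone 1 had the order of these means. Fzd1 came first in FOXP2 clone 3 and FOXP2-CPED1 clones 1 and 3. In FOXP2 clones 2 and 4 and FOXP2-CPED1 clones 2 and 4, Fzd2 came first and Fzd7 still exceeded Fzd1, as in the controls. The sum of the 7 Frizzled rows was 163 ± 38.6 RPKM in FOXP2 clones, 166 ± 17.6 RPKM in FOXP2-CPED1 clones and 174 ± 4.40 RPKM in control cells. Of that sum, Fzd7 made up 29.3 ± 6.61% in FOXP2 clones, 27.2 ± 7.61% in FOXP2-CPED1 clones and 46.1 ± 1.38% in control cells. Fzd1 made up 31.2 ± 14.1%, 32.6 ± 10.2% and 14.2 ± 1.01% in the same groups. The ratio of Fzd1 to Fzd7 was 0.419 to 2.33 in the clones, lowest in FOXP2 clone 4, against 0.331 and 0.287 in parental and vector cells. These shares describe the same values as above and were not tested. Fzd3, Fzd4, Fzd5 and Fzd8 together held 2.86 to 5.09% of the sum in the clones and 3.23 and 3.40% in the controls.

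Lrp6, the co-receptor that with Frizzled carries the beta-catenin signal, had 21.4, 7.96, 18.0 and 21.0 RPKM in FOXP2 clones 1 to 4, 12.3, 21.2, 17.4 and 9.82 RPKM in FOXP2-CPED1 clones 1 to 4, and 19.0 RPKM in both parental and vector cells. FOXP2 clone 2 and FOXP2-CPED1 clones 1 and 4 were low, 3 clones were above the controls, and the groups overlapped. The log2 fold change was -0.23 ± 0.38 for FOXP2 (SE, limma adjusted p = 0.913) and -0.36 ± 0.38 for FOXP2-CPED1 (0.894). For FOXP2 its sign rested on clone 2: without that library it was 0.08, and without clone 1 or clone 4 it was -0.36. For FOXP2-CPED1 it was -0.19 without clone 4, and over all clones it was -0.14 without FOXP2 clone 2, against -0.30 with all libraries. Lrp5, the related co-receptor, was below both controls in all 8 clones, at 18.4 ± 3.58 RPKM in clones (SD, n = 8) and 24.6 ± 2.05 RPKM in control cells (n = 2), with a log2 fold change of -0.42 ± 0.21 that did not pass (adjusted p = 0.590).

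Of the secreted antagonists, Sfrp1 was the member with a row. It had 0.0214, 0.0416, 1.43 and 0.00961 RPKM in FOXP2 clones 1 to 4, 0.314, 0, 0.565 and 0.0178 RPKM in FOXP2-CPED1 clones 1 to 4, and 0.0347 and 0.0233 RPKM in parental and vector cells. FOXP2 clone 3 stood apart, FOXP2-CPED1 clones 3 and 1 followed, and the other 5 clones were between 0 and 0.0416 RPKM. Sfrp1 did not enter the main test because it reached 1 RPKM in 1 library. Without that filter its log2 fold change over all clones was 0.26 ± 0.32 (SE, limma adjusted p = 0.875). Axin2, a scaffold of the complex that degrades beta-catenin and a widely used Wnt target, had 0.310, 0.235, 1.59 and 0.103 RPKM in FOXP2 clones, 0.749, 0.123, 0.255 and 0.229 RPKM in FOXP2-CPED1 clones, and 0.192 and 0.557 RPKM in parental and vector cells. FOXP2 clone 3 was again highest and the groups overlapped. The log2 fold change of Axin2 over all clones, without the filter, was 0.03 ± 0.30 (adjusted p = 0.983).

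**Figure D3:**
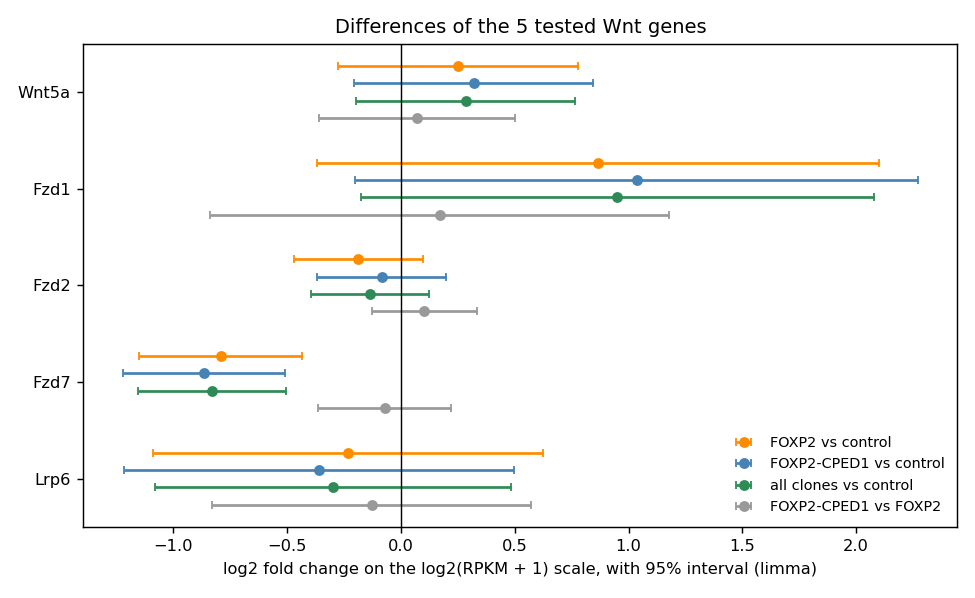
Log2 fold changes (horizontal axis, log2(RPKM + 1) scale) of the 5 tested members (rows) in 4 comparisons (colours), with 95% intervals from limma as bars. The intervals of Fzd7 against the control lie below 0 for FOXP2, FOXP2-CPED1 and all clones, while those of the other 4 members include 0.

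Read against all rows tested, limma called 0 of the 5 tested members for FOXP2 against the control, where 0.436% of all rows were called, and 0 of 5 for FOXP2-CPED1 against the control, where 0.35% were. Fzd7, Fzd1 and the 3 others had unadjusted p-values from 0.000295 to 0.558 in these comparisons, and Fzd7 was the member under 0.05 in each, as were 8.52% of all rows for FOXP2 and 7.28% for FOXP2-CPED1. Over all clones, 1 of 5 was called, Fzd7, against 0.537% of all rows in either direction and 0.498% in the direction of lower levels in the clones. Since the members were chosen with earlier results of these data known, this contrast is a description and no test. Libraries of the groups did not overlap for 2 members with FOXP2 (Fzd7 and Fzd2, both lower), against 19.5% of all rows. With FOXP2-CPED1 they did not overlap for 3 (Fzd1 and Wnt5a higher, Fzd7 lower), against 25.6% of all rows, and over all clones for 1 (Fzd7), against 11.8%. The median log2 fold change of the 5 members over all clones was -0.14, and that of all rows 0.01.

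Between the constructs, limma called 0 of 5 members between FOXP2-CPED1 and FOXP2 clones, as it called 0% of all rows. In that comparison 278 rows (2.16%) had an unadjusted p under 0.05, none of them a member, and library quality weights called 4 rows (0.0311%), again no member. The groups did not overlap for 0 members, against 1.38% of all rows. For Fzd7 the log2 difference, FOXP2-CPED1 over FOXP2, was -0.07 with a 95% interval of -0.36 to 0.22, for Fzd2 0.10 (-0.13 to 0.33) and for Wnt5a 0.07 (-0.36 to 0.50). For Fzd1 it was 0.17 (-0.84 to 1.18) and for Lrp6 -0.13 (-0.83 to 0.57). All 5 intervals include 0. The sign for Fzd1 rested on single clones: it was -0.20 without FOXP2 clone 4 and -0.01 without FOXP2-CPED1 clone 3. The signs for Wnt5a, Fzd7 and Lrp6 also turned with 1 library left out, to -0.11 without FOXP2 clone 4 for Wnt5a, 0.01 without FOXP2-CPED1 clone 1 for Fzd7 and 0.05 without FOXP2-CPED1 clone 4 for Lrp6.

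**Figure D4:**
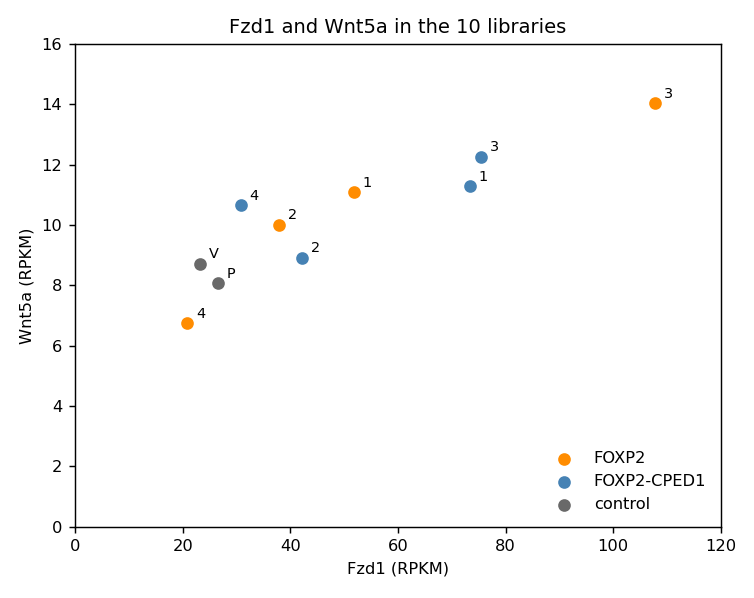
Level of Wnt5a (vertical axis, RPKM) against that of Fzd1 (horizontal axis, RPKM) in the 10 libraries, coloured by group, with clone numbers and P for parental and V for vector cells. FOXP2 clone 3 and FOXP2-CPED1 clones 3 and 1 lie at the upper right, and FOXP2 clone 4 lies at the lower left, below both controls.

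How the members varied between clones did not follow the constructs. FOXP2 clone 3 had the highest level of Wnt5a, Fzd1, Sfrp1 and Axin2 among the 10 libraries. FOXP2-CPED1 clones 3 and 1 came next for Wnt5a, Fzd1 and Sfrp1. FOXP2 clone 4 was lowest of all libraries for Wnt5a, Fzd1 and Axin2, and Sfrp1 was lower there than in any other library but FOXP2-CPED1 clone 2. Across the 10 libraries Wnt5a and Fzd1 had a Pearson correlation of 0.90, and across the 8 clones alone 0.89. Both values were the highest of any pair of members. These points share their libraries, so this describes the same 10 cultures and is no test. Fzd1 and Fzd7 had -0.68 over 10 libraries and -0.60 over the 8 clones.

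The genes whose log2(RPKM + 1) followed Fzd1 most closely over the 10 libraries, among 8668 rows with a mean of at least 5 RPKM, were Dpy19l1 (Pearson r = 0.967, Spearman rho = 0.964), Evc2 (0.966 and 0.939) and Hgf, the hepatocyte growth factor gene (0.962 and 0.939). Hgf had 4.15, 4.00, 37.4 and 0.423 RPKM in FOXP2 clones, 21.2, 2.17, 11.6 and 0.745 RPKM in FOXP2-CPED1 clones, and 1.17 and 0.926 RPKM in parental and vector cells. Its highest library was FOXP2 clone 3 and its lowest FOXP2 clone 4, as for Fzd1. Genes picked by correlation over these same libraries tend to share high and low clones. Such likeness, here and for Lrp6 below, is therefore no further result. Lrp6 was followed most closely by Ahnak2 (r = 0.990, rho = 0.915), Cd47 (0.986 and 0.867) and Gm13212 (0.979 and 0.939). Ahnak2 had 104.5, 47.1, 96.6 and 111.4 RPKM in FOXP2 clones, 68.1, 114.1, 99.8 and 60.8 RPKM in FOXP2-CPED1 clones, and 106.5 and 104.0 RPKM in parental and vector cells, with the same 3 low clones as Lrp6.

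The other genes of the pathway came from a list of 107 Wnt components that includes the members. Of these, 58 had a row of their own and 50 were tested, 45 of them not members. Limma called 0 of these 45 in any of the 4 comparisons. Over all clones, 1 was higher and 5 were lower at an unadjusted p under 0.05, which 9.1% of all rows also reached. With library quality weights 6 of the 45 were called (Ctnnbip1, Jun, Myc, Prickle2, Tcf7l1 and Vangl2), where those weights called 14.3% of all rows. Both counts are near the background. The clones lay apart from the controls for 8 of the 45, 6 lower and 2 higher, against 11.8% of all rows. The median log2 fold change of the 45 was -0.06.

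**Figure D5:**
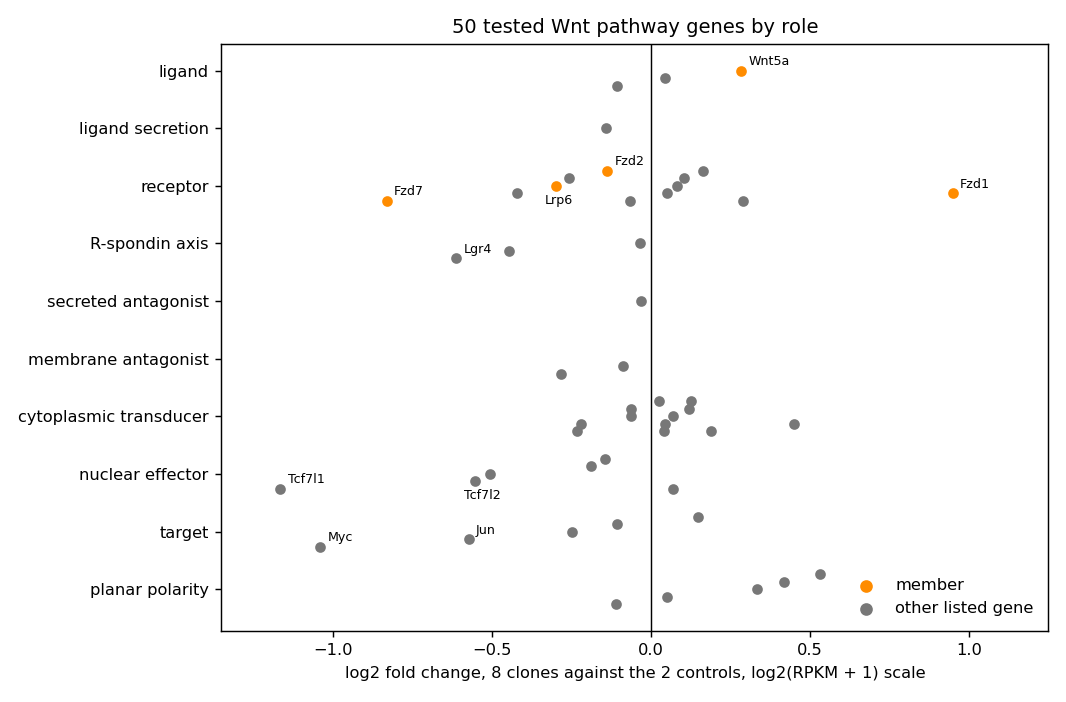
Log2 fold change of the 8 clones against the 2 controls (horizontal axis, log2(RPKM + 1) scale) for the 50 tested pathway genes, arranged by role (vertical axis) and spread slightly within a role for visibility. Members are orange and other listed genes grey. Fzd1 is at 0.95 and Fzd7 at -0.83, with Tcf7l1 at -1.16 and Myc at -1.04 furthest to the left.

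By role, the median log2 fold change over all clones was taken over the tested genes other than the members. It was -0.45 for the R-spondin axis (3 genes), -0.35 for nuclear effectors (6) and -0.25 for targets (5). For planar polarity (5) it was 0.33, for receptors (8) 0.07 and for cytoplasmic transducers (12) 0.04. The remaining roles, with 1 or 2 genes each, lay between -0.19 and -0.03. No gene was called in any role. Tcf7l1, a TCF factor that mostly represses Wnt targets, had 15.2 to 38.0 RPKM in FOXP2 clones, 18.0 to 33.4 RPKM in FOXP2-CPED1 clones, and 58.9 and 57.5 RPKM in parental and vector cells. Its log2 fold change over all clones was -1.16 ± 0.31 (SE, unadjusted p = 0.00393, limma adjusted p = 0.212), so it did not pass although no clone reached the controls. Tcf7l2, another TCF factor, averaged 13.3 ± 2.30 RPKM in clones and 19.9 ± 4.17 RPKM in control cells, a log2 fold change of -0.55 (adjusted p = 0.413). Myc, a growth regulator and Wnt target in intestine, averaged 43.2 ± 18.3 RPKM in clones and 83.9 ± 5.06 RPKM in control cells (-1.04, adjusted p = 0.417). Jun, an AP-1 subunit, averaged 43.9 ± 11.2 RPKM in clones and 63.8 ± 1.40 RPKM in control cells (-0.57, adjusted p = 0.514). Ctnnbip1, an inhibitor of the beta-catenin and TCF interaction, was the fifth, at 11.0 ± 2.71 RPKM in clones and 15.7 ± 1.08 RPKM in control cells. It was named after its values were seen. Beta-catenin itself, Ctnnb1, spanned 236 to 317 RPKM in clones and 271 to 302 RPKM in control cells, and was named in the same way.

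Of the 45 genes, 2 had higher levels in all 8 clones than in both controls, and both belong to planar cell polarity. Among all rows, 11.8% lay apart from the controls in either direction. The share that lay higher alone is not given here, so the 2 genes have no matching share. Neither gene passed the test. Prickle2, a cytoplasmic polarity protein, averaged 1.24 ± 0.326 RPKM in clones and 0.533 ± 0.0662 RPKM in control cells, with a log2 fold change of 0.53 ± 0.20 (unadjusted p = 0.0218, limma adjusted p = 0.426). Vangl2, a membrane protein of the same system, averaged 3.83 ± 0.467 RPKM in clones and 2.81 ± 0.0321 RPKM in control cells (0.33 ± 0.15, adjusted p = 0.556). Its separation was narrow, with 2.837 RPKM in FOXP2 clone 2 against 2.835 RPKM in parental cells. Prickle2 and Vangl2 are both low in these cells. Prickle2 reached 1 RPKM in 6 clones and in neither control library. It thus entered the test only through the group where it is higher.

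For 9 further genes, the clones overlapped with the controls, with unadjusted p from 0.122 to 0.866 over all clones. Wls, which carries Wnt ligands to the cell surface, averaged 140 ± 36.5 RPKM in clones and 150 ± 12.8 RPKM in control cells. Ror2, a co-receptor for Wnt5a, averaged 4.20 ± 1.12 RPKM in clones and 3.17 ± 0.148 RPKM in control cells and was above both controls in 7 of 8 clones. Lgr4, a receptor for R-spondins, averaged 39.6 ± 16.5 RPKM in clones and 56.1 ± 1.61 RPKM in control cells, and the ligand Rspo2 averaged 1.28 ± 0.821 and 2.01 ± 0.654 RPKM in the same groups. The antagonists Sostdc1 and Kremen1 averaged 8.22 ± 1.55 and 14.6 ± 2.26 RPKM in clones, against 8.32 ± 0.0377 and 17.9 ± 0.942 RPKM in control cells. Apcdd1, a membrane inhibitor, averaged 6.12 ± 1.93 RPKM in clones and 6.34 ± 0.342 RPKM in control cells. Of the transducers, Btrc, part of the ubiquitin ligase for beta-catenin, averaged 4.59 ± 0.656 RPKM in clones and 5.47 ± 0.147 RPKM in control cells. Frat2, which binds the kinase Gsk3, averaged 4.45 ± 1.87 RPKM in clones and 2.85 ± 0.815 RPKM in control cells.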

How the data were processed

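RNA was sequenced from 10 NIH3T3 cultures, with libraries made by the NEBNext Ultra RNA kit, per the labels' protocols. The authors deposited 1 table of RPKM values with a column per library. HISAT2, StringTie and mm9 are named in the submitters' processing notes. The sources used here give no versions, gene annotation, strandedness or filters. Of 18430 rows, 3581 without a gene name were left out of the tests. They made up 3.37 to 4.54% of a library's summed RPKM. Overlapping genes and near copies can share reads.

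RPKM values are not counts, so log2(RPKM + 1) was fitted with limma 3.58.1 in R 4.3.3, as 3 groups over all 10 libraries, with moderated variances that follow a trend on the mean level. The 3 groups share a variance estimate for each row, set mostly by the clones, so the control is assumed to vary like them. Rows that name a gene and reach 1 RPKM in at least 2 libraries were tested (12842). P-values are two-sided with Benjamini-Hochberg adjustment over all rows tested and a threshold of 0.05. Fold changes understate those of low genes. Exact permutation tests used the absolute difference in mean log2(RPKM + 1) (scipy 1.17.1, Python 3.11.15). An exact 0 can be a failed estimate and is given as listed at 0. Since the files hold no counts, no counting interval was computed.

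The members and lists were chosen with earlier results of these data known. All 10 members are named. From the other pathway genes, those past the threshold and, for each role, the 2 with the smallest unadjusted p over all clones are named. For the 2 members with the widest range over the libraries, the 3 rows most correlated with them are named. The alternatives were another pseudocount, 2 other filters on low values, quantile normalization, scaling by median ratios, no trend, library quality weights, only the groups compared, clone numbers as a block, each library left out in turn, and a fit without all 3 libraries that list the mitochondrial rows at 0. The block joined clones of the same number and held both controls together. It entered as a shared correlation in comparisons with the control, and as fixed terms between the constructs. The main fit was tested on simulated data.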

Additional observations from a re-analysis of the deposited data

Results flagged for a closer look

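In a group of 4 clones, a single clone was marked where its gap to the nearest other clone took up most of the range of the group. Of 50 such groups of 25 genes, 4 were marked, and chance marks about 1 in 20. Sfrp1 was at 1.43 RPKM in FOXP2 clone 3, with the other FOXP2 clones between 0.00961 and 0.0416 RPKM. Axin2 was at 1.59 RPKM in the same clone, with the others between 0.103 and 0.310 RPKM. The carrier of Wnt ligands, Wls, was at 97.7 RPKM in FOXP2-CPED1 clone 4, with the other FOXP2-CPED1 clones between 155 and 166 RPKM. Tcf7l2 was at 11.2 RPKM in that clone, with the others between 13.9 and 14.0 RPKM.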

How the results depend on the processing

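The fold changes of Fzd7, Fzd1, Fzd2 and Wnt5a against the control kept their sign under every alternative run. Fzd7 over all clones lost its call with a pseudocount of 0.1, without the trend, with the replicate block and without the 3 libraries with mitochondrial rows at 0, so 0 members were called in each. The count was 0 to 1 with each library left out, and 2 (Fzd7 and Fzd1) with library quality weights. With quality weights 2 members were also called for FOXP2 and 2 for FOXP2-CPED1, and without FOXP2-CPED1 replicate 4 it was 1 each. Without the 3 libraries, Lrp6 for FOXP2 turned to 0.0435, and between FOXP2-CPED1 and FOXP2 Fzd1 turned to -0.70 and Wnt5a to -0.26. Lrp6 for FOXP2 also turned to 0.11 with quality weights. With each library left out, Lrp6 for FOXP2 ran from -0.36 to 0.0750, the highest without FOXP2 replicate 2. Between FOXP2-CPED1 and FOXP2 the ranges were -0.20 to 0.57 for Fzd1, -0.18 to 0.0110 for Fzd7, -0.44 to 0.0458 for Lrp6 and -0.11 to 0.21 for Wnt5a. The causes were not tested.

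Over all genes, 56 were called for FOXP2, 45 for FOXP2-CPED1, 69 over all clones and 0 between the constructs. Quality weights called 2095, 929, 1842 and 4. A pseudocount of 0.1 called 37 for FOXP2 and 28 for FOXP2-CPED1. For FOXP2, 9 were called with only the groups compared and 23 without the 3 libraries. Leaving out a library gave 2 to 64, 0 to 57, 2 to 82 and 0 to 1. Clone numbers are shared between the constructs, and same-numbered clones deviated with correlations of -0.04, -0.24, 0.28 and 0.17. Clones of unlike number deviated with correlations of -0.43 to 0.39. Whether same-numbered clones share a batch was not tested. With the replicate block 47, 37, 51 and 0 genes were called, and Fzd7 had adjusted p = 0.0639 over all clones. The 2 control libraries limit the precision of every comparison with them.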

Other observations

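FOXP2 clone 2 and FOXP2-CPED1 clone 4, singled out after their values were seen, resembled each other in several pathway genes. Lrp6 was at 7.96 and 9.82 RPKM in them, Wls at 84.7 and 97.7 RPKM and Lgr4 at 16.1 and 22.6 RPKM, the lowest of the 10 libraries in each case. Ccnd1, the cyclin D1 gene, was at 114 and 109 RPKM there, and at 15.4 to 56.7 RPKM in the other 6 clones and 46.9 and 48.5 RPKM in the controls. Cd44, a hyaluronan receptor, was at 47.1 and 43.1 RPKM there, and at 15.3 to 26.1 RPKM in the other 6 clones and 29.3 and 32.7 RPKM in the controls. These 2 clones carry different constructs, and mitochondrial rows were at 0 in the first of them alone. No test was made.

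Among genes near or under 1 RPKM, Lgr5, a receptor for R-spondins, was at 0 to 0.539 RPKM in the 8 clones and at 0.637 and 1.15 RPKM in parental and vector cells. Wnt1, a ligand that signals through beta-catenin, was at 0.130 to 0.921 RPKM in the clones and 0.970 and 0.916 RPKM in parental and vector cells. Lgr5 and Wnt1 were singled out after their values were seen and were outside the main test. Without the filter, limma gave adjusted p = 0.418 for Lgr5 and 0.555 for Wnt1 over all clones. The other listed genes with a row outside the main test were Ptk7, Sfrp2, Frat1, Celsr1, Sfrp1 and Axin2. Their means over all clones were higher than in control cells, but not for each construct. Ptk7 averaged 0.563 RPKM in FOXP2 clones, 0.0489 RPKM in FOXP2-CPED1 clones and 0.232 RPKM in control cells. Sfrp2 averaged 0.0436, 0.443 and 0.154 RPKM in the same groups, and Axin2 0.561, 0.339 and 0.375 RPKM. Frat1, Celsr1 and Sfrp1 had higher means with both constructs.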
